A study of Mus musculus with 12 samples.

Results

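The T cell receptor complex and its proximal kinases were followed through 9 genes of a panel of 770, measured in 12 tumors. The genes were taken by symbol and were Cd3d, Cd3e, Cd3g and Cd247, which encode the CD3 chains and the zeta chain, Cd4, Cd8a and Cd8b1, which encode the coreceptors, and Zap70 and Lck, which encode the kinases. All 9 were on the panel and all 9 were tested, and no filter on low counts removed any. The tumors were grown from A20 cells, a mouse B-cell lymphoma line, implanted under the skin of female Balb/c mice that were 7 to 8 weeks old when bought. About 7 days later the mice were assigned to PBS, to GLA-SE or to SE, with 4 mice in each group. GLA-SE, called G100 by the study, was 10 ug of GLA, a synthetic TLR4 agonist, in 50 ul of a 2% stable emulsion, and SE was the emulsion alone. Each tumor received 3 injections, on alternate days, and was taken 2 h after the last. All groups carried the same lymphoma line, and each tumor is the RNA of whole tissue, lymphoma cells included.

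The T cell receptor recognises peptides held by MHC molecules but has no signalling domain of its own. The CD3 gamma, delta and epsilon chains and the zeta chain carry the signal into the cell through tyrosine motifs in their tails. CD4 binds MHC class II and CD8 binds MHC class I, and both bring Lck, a Src family kinase, to the receptor, where it phosphorylates the motifs. ZAP-70 then docks on the phosphorylated zeta and CD3 chains and passes the signal on. In a B-cell lymphoma most of these transcripts are known as products of infiltrating T cells, and Zap70, Lck, Cd247, Cd4 and Cd8a are also known in other leukocytes.

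Promoter sequences were matched by symbol to RefSeq on GRCm38.p6, where 7 of the 9 genes had at least 1 entry, and Cd4 and Cd8b1 had none. The 3 CD3 genes are neighbours on chromosome 9, in the order Cd3g, Cd3d, Cd3e, and Cd3g and Cd3d start in opposite directions 1355 bases apart. Their upstream sequences are shown because their transcripts moved most closely together in these tumors, and that of Cd247 because its product joins the same complex from another chromosome. Each run is the 250 bases before the start of the gene, read 5′ to 3′ on the strand of the gene, and capitals mark the letters AGGAAG or CTTCCT, a core of ETS family sites read on both strands.
Cd3g (chr9:44980432-44980681, minus strand): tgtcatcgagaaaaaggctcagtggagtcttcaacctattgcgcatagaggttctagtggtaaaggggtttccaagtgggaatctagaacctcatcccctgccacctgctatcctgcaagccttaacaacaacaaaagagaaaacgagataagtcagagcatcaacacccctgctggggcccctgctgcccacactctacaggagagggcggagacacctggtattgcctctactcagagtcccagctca
Cd3d (chr9:44981536-44981785, plus strand): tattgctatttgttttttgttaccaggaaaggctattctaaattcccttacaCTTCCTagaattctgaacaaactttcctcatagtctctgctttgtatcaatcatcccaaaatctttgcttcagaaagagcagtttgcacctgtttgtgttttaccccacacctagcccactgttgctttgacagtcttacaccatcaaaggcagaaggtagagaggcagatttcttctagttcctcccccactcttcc
Cd3e (chr9:45009612-45009861, minus strand): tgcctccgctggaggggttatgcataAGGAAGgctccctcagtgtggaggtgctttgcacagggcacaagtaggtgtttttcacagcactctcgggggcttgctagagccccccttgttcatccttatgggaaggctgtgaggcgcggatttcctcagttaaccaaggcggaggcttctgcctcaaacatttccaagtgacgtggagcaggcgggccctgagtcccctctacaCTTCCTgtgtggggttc
Cd247 (chr1:165788431-165788680, plus strand): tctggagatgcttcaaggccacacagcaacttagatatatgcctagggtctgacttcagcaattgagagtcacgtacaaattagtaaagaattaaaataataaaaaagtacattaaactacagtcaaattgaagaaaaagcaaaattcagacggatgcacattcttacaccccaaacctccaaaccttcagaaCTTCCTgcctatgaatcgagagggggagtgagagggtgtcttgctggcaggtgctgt
These letters were found upstream of Cd3d, Cd3e and Cd247 and not in the window of Cd3g. Over the members, 7 of 10 entries held them, with several entries for Zap70 and Lck, against 29.5% of all 32851 promoter windows of this length. The letters ACCACA or TGTGGT, the core of RUNX sites read on both strands, were in 2 of the 10 entries, 1 of Zap70 and 1 of Lck, against 14.0% of all windows. The E-box CANNTG was in 9 of the 10 entries and in 66.2% of all windows. These matches describe the letters in the windows and no binding was measured.

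The deposited values were whole-number counts of barcoded probes, with totals of 810260 to 1612415 per tumor. Counts were divided by a factor from 17 of the 20 reference genes of the panel and are called reference-scaled counts. A count depends on the efficiency of its probe, so levels were compared between tumors for 1 gene and not between genes. The lowest deposited count of any member was 35, that of Cd8b1 in PBS replicate 2. SE replicate 4 stood apart before any comparison was made. Its reference genes had a geometric mean of 1010.8 counts, against 1647.4 to 3077.3 in the other SE tumors, and all 9 members were highest in it among SE tumors, both as deposited and after scaling. Over the panel, 241 of 750 genes had their highest SE count in this tumor as deposited and 556 after scaling. Summed markers of endothelium and fibroblasts (Cdh5, Kdr, Tie1, Col1a1, Col3a1 and Pdgfrb) reached 118123.1 in it, against 3127.4 to 27484.6 in the other SE tumors. This sum was mostly the collagens Col1a1 and Col3a1 and says little about endothelium. Over all tumors the deposited counts reached 44738 for Col3a1, 12135 for Col1a1 and at most 483 for the other markers of the sum. Summed B cell markers were lowest in it among SE tumors, at 14219.3 against 17430.8 to 23084.5. The part of these other cells in its T cell transcripts was not tested. Comparisons of the members, their ratios and the pathway lists with SE are therefore given with and without this tumor. In bulk tissue, fewer cells of a type and less RNA per cell cannot be told apart, and this holds for every level below.

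**Figure D1:**
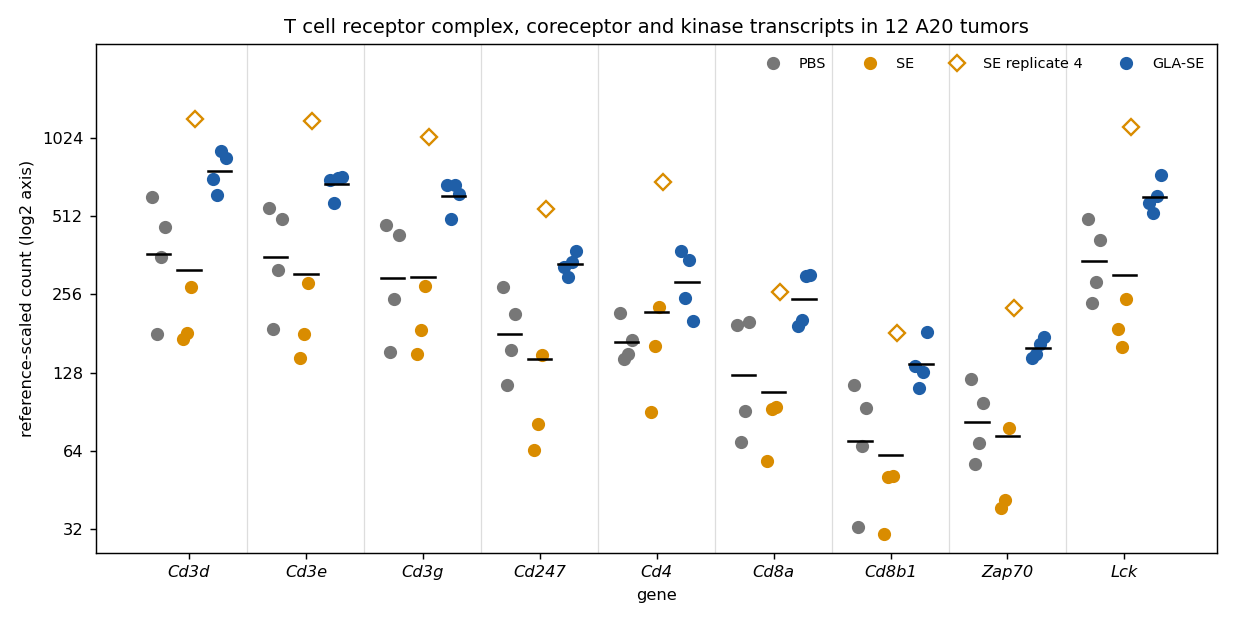
Reference-scaled counts of the 9 genes (log2 axis) in the 4 PBS, 4 SE and 4 GLA-SE tumors. Each point is a tumor, black lines are means on the log2 scale, and the open diamond is SE replicate 4. For Cd3d the GLA-SE tumors sit between 616.8 and 910.7, above the PBS tumors, while SE replicate 4 sits at 1209 and the other SE tumors between 171.9 and 273.5.

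In GLA-SE tumors the transcripts of the receptor complex, of Cd4 and of both kinases were 1.70- to 1.92-fold those of PBS tumors, and both CD8 transcripts had folds of the same size without passing the test. By edgeR's quasi-likelihood test with Benjamini-Hochberg adjustment over 750 genes, 7 of 9 members passed an adjusted p of 0.05, all in the direction of GLA-SE. The same test called 68.7% of all panel genes, 512 of them higher and 3 lower, so 7 of 9 is close to the background. The median log2 fold change of the members was 0.85, beside 0.89 over the panel. For 6 members every GLA-SE tumor lay above every PBS tumor, which held for 63.6% of panel genes. Relative to the panel median, the members' median was thus −0.045, and their rise is a rise relative to the reference genes.

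Cd3d, the delta chain, had reference-scaled counts of 609.5, 180.5, 356.4 and 464.6 in PBS replicates 1 to 4. In the GLA-SE tumors it had 714.1, 616.8, 910.7 and 855.1. The lowest GLA-SE tumor was just above the highest PBS tumor, and PBS replicate 2 was far below the others. It was thus higher by 0.94 on the log2 scale (standard error, s.e., 0.33, edgeR adjusted p = 0.0304). Cd3e, the epsilon chain that pairs with both delta and gamma, had 548.3, 187.9, 318.4 and 498.8 in PBS tumors. In GLA-SE tumors it had 707.3, 573.2, 717.2 and 727.0. Again the groups did not overlap, and GLA-SE replicate 2 was the low tumor of its group. This gave a log2 fold change of 0.81 (s.e. 0.30, edgeR adjusted p = 0.0398). Cd3g, the gamma chain, had 471.9, 154.3, 246.1 and 433.7 in PBS tumors and 674.6, 497.4, 672.7 and 623.2 in GLA-SE tumors. The order of the tumors resembled that of the other CD3 genes, with PBS replicate 2 lowest and PBS replicate 1 highest among the PBS tumors. Against PBS the log2 fold change was 0.92 (s.e. 0.33, edgeR adjusted p = 0.0337).

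Cd247, the zeta chain, had 274.1, 115.0, 156.3 and 214.4 in PBS tumors and 325.7, 300.1, 342.3 and 375.2 in GLA-SE tumors. The groups did not overlap and the GLA-SE tumors were close together (335.8 ± 31.5, SD, n = 4, against 190.0 ± 69.4). Its log2 fold change was 0.82 (s.e. 0.26, edgeR adjusted p = 0.0203). In a two-sided exact permutation test each of these 4 chains had p = 0.0286, which 4 tumors against 4 cannot go below, and 0.0442 once adjusted over 750 genes.

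Cd4, the coreceptor of MHC class II restricted T cells, had 217.6, 144.0, 151.2 and 170.8 in PBS tumors. In GLA-SE tumors it had 374.9, 249.2, 348.8 and 202.3. GLA-SE replicate 4 lay within the PBS range and the other GLA-SE tumors above it. Cd4 had a log2 fold change of 0.78 (s.e. 0.24, edgeR adjusted p = 0.0180, exact p = 0.0571). Cd8a, the alpha chain of CD8, had 195.9, 69.2, 91.3 and 200.9 in PBS tumors and 193.7, 203.5, 301.0 and 305.0 in GLA-SE tumors. The PBS tumors fell into a low and a high pair, and the high pair reached the level of the lower GLA-SE tumors. For Cd8a the log2 fold change was 0.85 (s.e. 0.37, edgeR adjusted p = 0.0681, exact p = 0.0857), as large as that of the called members and with a wider error. Cd8b1, the beta chain, had 114.9, 32.7, 67.2 and 93.7 in PBS tumors and 135.9, 112.1, 129.3 and 184.0 in GLA-SE tumors. Only PBS replicate 1 reached into the GLA-SE range. For Cd8b1 the log2 fold change was 0.86 (s.e. 0.36, edgeR adjusted p = 0.0601, exact p = 0.0571).

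Zap70, the kinase that docks on the phosphorylated chains, had 120.6, 57.0, 68.7 and 97.7 in PBS tumors and 146.5, 151.6, 165.2 and 174.9 in GLA-SE tumors. All GLA-SE tumors lay above all PBS tumors, and within the GLA-SE group the highest was close to the lowest. Its fold change on the log2 scale was 0.89 (s.e. 0.25, edgeR adjusted p = 0.0129). When tumors were left out in turn, Zap70 was the one member that was called all 8 times. Lck, the kinase that the coreceptors bring to the receptor, had 500.2, 238.4, 285.5 and 416.2 in PBS tumors and 574.4, 525.4, 611.8 and 740.2 in GLA-SE tumors. Its groups did not overlap either. The log2 fold change of Lck was 0.77 (s.e. 0.24, edgeR adjusted p = 0.0202). Both kinases had an exact p of 0.0286 from the permutation test.

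The number of called members rested on the scaling and on single tumors. With each tumor scaled to the median of the panel all 9 log2 fold changes reversed, to between −0.48 and −0.28, and 0 were called, with 1 at an unadjusted p under 0.05. TMM scaling and no rescaling called 0 members too. Panel genes split into 512 higher and 3 lower as reported, into 61 and 307 with panel median scaling, 193 and 133 with TMM scaling and 351 and 17 with no rescaling. Without PBS replicate 3 only Zap70 was called, without GLA-SE replicate 4 there were 3 called members and without GLA-SE replicate 3 there were 4. Over the panel the same fits called 442, 503 and 488 of 750 genes, beside 515 with all tumors.

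**Figure D2:**
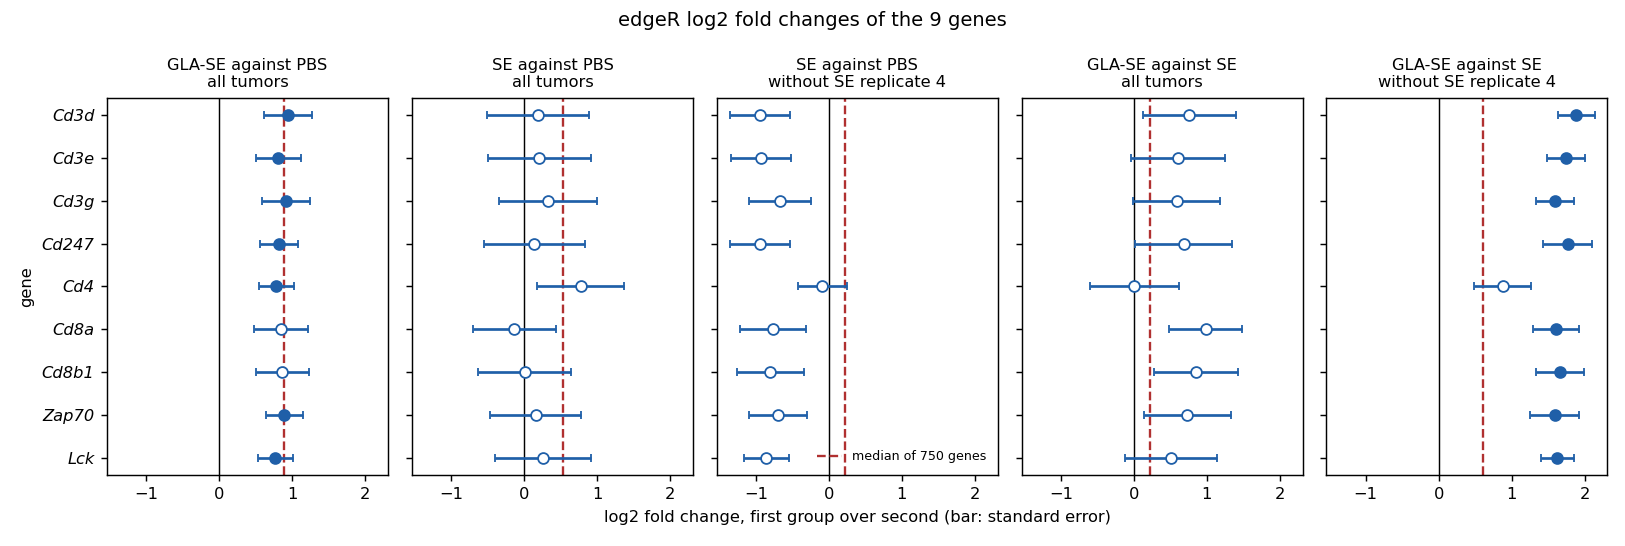
Log2 fold changes from edgeR with standard errors (bars) for the 9 genes, in the 3 comparisons and, for those with SE, also without SE replicate 4. Filled points have an adjusted p under 0.05 and the dashed line is the median of the 750 genes tested. The points lie close to the dashed line (0.89) for GLA-SE against PBS and, Cd4 excepted, well to its right for GLA-SE against SE without SE replicate 4 (0.61).

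Between SE and PBS no difference was detected in any member. The adjusted p was 0.380 or more for all 9 (edgeR's quasi-likelihood test), 0 members passed at an unadjusted p of 0.05, and the test called 0% of panel genes, while 140 of 750 had an unadjusted p under 0.05 and DESeq2 called 60 genes, none of them a member. Log2 fold changes were −0.14 for Cd8a, 0.77 for Cd4 and between 0.01 and 0.33 for the other members, with standard errors of 0.57 to 0.71. The SE tumors split. Cd3d had 171.9, 182.2 and 273.5 in SE replicates 1 to 3 and 1209 in SE replicate 4. Cd247 had 64.9, 81.2 and 149.9 in the first 3 and 545.6 in SE replicate 4. Lck had 188.6, 161.4 and 246.1 and then 1132. In each of these genes SE replicates 1 to 3 were, after scaling, at or below the middle of the PBS tumors. SE replicate 4 was above every GLA-SE tumor after scaling, with a scale factor of 0.4912, but not as deposited. Its deposited counts were 594 for Cd3d (594 to 841 in GLA-SE tumors), 268 for Cd247 (289 to 369) and 556 for Lck (506 to 728). Over the 9 members SE replicate 4 was 2.77-fold (Cd8a) to 4.60-fold (Lck) the highest of the other SE tumors after scaling and 1.45-fold (Cd8a) to 2.58-fold (Cd3e) as deposited.

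Without SE replicate 4 all 9 log2 fold changes of SE against PBS were below 0, at −0.95 for Cd3d, −0.94 for Cd3e, −0.68 for Cd3g, −0.95 for Cd247, −0.77 for Cd8a, −0.80 for Cd8b1, −0.70 for Zap70, −0.86 for Lck and −0.09 for Cd4. None of these had an adjusted p under 0.05 by edgeR, and Lck was the one member with an unadjusted p under it (0.0244, adjusted p = 0.374). With panel median scaling, TMM scaling and no rescaling 8 of the 9 had an unadjusted p under 0.05 without this tumor, and 0 were called. Over the panel 68, 75 and 56 of 750 genes had such a p under these scalings, and 1, 1 and 0 were called. With scaling to the reference genes 84 panel genes had such a p and 0 were called. The panel median was 0.21, and the members' median minus that of the panel was −1.02. The groups still overlapped for all 9 members. Cd4 was the member nearest to 0, with 90.3, 162.4 and 228.6 in SE replicates 1 to 3 and 692.1 in SE replicate 4. It spanned the PBS range of 144.0 to 217.6 without the fourth tumor.

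Between GLA-SE and SE, tumors that differ in GLA and share the emulsion, 0 of 9 members were called by edgeR with all 8 tumors and 0 had an unadjusted p under 0.05, where the test called 2.13% of panel genes. The log2 fold changes were 0.01 for Cd4 and 0.51 (Lck) to 0.99 (Cd8a) for the others, with a median of 0.68 beside 0.22 over the panel. DESeq2 and limma called 0 members too, while they called 110 and 18 of 750 panel genes. After scaling, SE replicate 4 exceeded every GLA-SE tumor in 7 of the members, Cd8a and Cd8b1 excepted. This rests on its scale factor of 0.4912, since as deposited it did not exceed every GLA-SE tumor in any member.

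Without SE replicate 4, 8 of 9 members were higher in GLA-SE tumors at an adjusted p under 0.05, where the same test called 13.6% of panel genes. Every GLA-SE tumor lay above every remaining SE tumor for these 8 members, which held for 35.7% of panel genes. The log2 fold change of Cd3d was 1.89 (s.e. 0.25, edgeR adjusted p = 0.0146), with GLA-SE tumors at 774.1 ± 133.6 (SD, n = 4) and SE tumors at 209.2 ± 56.0 (SD, n = 3). That of Cd247 was 1.77 (s.e. 0.34, edgeR adjusted p = 0.0243) and that of Lck was 1.63 (s.e. 0.22, edgeR adjusted p = 0.0146). Cd8a had 58.8, 92.7 and 94.9 in SE replicates 1 to 3 and at least 193.7 in GLA-SE tumors, and its log2 fold change was 1.61 (s.e. 0.32, edgeR adjusted p = 0.0252). Cd8b1 had 30.8, 51.0 and 51.2 in the same SE tumors and at least 112.1 in GLA-SE tumors. Zap70 had 38.8, 41.7 and 78.7 against at least 146.5. The exception was Cd4, with a log2 fold change of 0.88 (s.e. 0.39, edgeR adjusted p = 0.147) and overlapping groups. The members' median of 1.63 compares with a panel median of 0.61. The number of called members moved with the scaling here as well. Without this tumor it was 0 with panel median scaling, where 3 members had an unadjusted p under 0.05 and Cd4 reversed to −0.22, 4 with TMM scaling (Cd3d, Cd3e, Cd3g and Cd247) and 8 with no rescaling. Panel genes split into 101 higher and 1 lower as reported, 19 and 180 with panel median scaling, 24 and 3 with TMM scaling and 153 and 1 with no rescaling. The members' median minus that of the panel was 1.01 as reported, and 0.998, 1.00 and 0.997 with the other scalings. Leaving out this tumor was decided from its values, an exact p over 4 tumors against 3 cannot go below 0.0286, and no member passed the exact permutation test after adjustment over 750 genes (0.102 for the 8). GLA-SE tumors serve in both comparisons with GLA-SE and SE tumors in both with SE, so the comparisons are not independent of each other.

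The balance of CD8 and CD4 transcripts within a tumor does not depend on scaling. The ratio of Cd8a to Cd4 counts was 0.900, 0.481, 0.604 and 1.18 in PBS tumors and 0.517, 0.817, 0.863 and 1.51 in GLA-SE tumors. In SE tumors it was 0.652, 0.571, 0.415 and 0.379, all at or below the middle of the other groups. SE replicate 4 had the lowest ratio of all 12 tumors although its coreceptor counts were the highest among SE tumors. The difference in log2 ratio was 0.21 (standard error 0.43) between GLA-SE and PBS, −0.60 (0.34) between SE and PBS and 0.81 (0.37) between GLA-SE and SE. The two-sided exact permutation p values were 0.657, 0.143 and 0.0857, and after Benjamini-Hochberg adjustment over 24 ratio tests 0.997, 0.571 and 0.571. Without SE replicate 4 the differences with SE were −0.47 from PBS and 0.68 for GLA-SE (standard errors 0.35 and 0.37, exact permutation p = 0.257 and 0.171). A shift of the Cd8a to Cd4 ratio was not detected in any comparison, which with 4 tumors per group and errors of this size does not show that the ratios were alike.

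Cd8b1 to Cd4 behaved like Cd8a to Cd4 except that GLA-SE and SE did not overlap. Its log2 ratio was −1.05 ± 0.62 (SD, n = 4) in GLA-SE tumors, −1.83 ± 0.27 in SE tumors and −1.27 ± 0.59 in PBS tumors. For GLA-SE against SE the difference was 0.78 (standard error 0.34, exact permutation p = 0.0286, adjusted 0.343), and 0.75 without SE replicate 4 (exact permutation p = 0.0857). GLA-SE replicate 4 had a log2 ratio of −0.14, against −1.46 to −1.15 in the other GLA-SE tumors, and without it the difference was 0.48 (exact permutation p = 0.0571). For SE against PBS it was −0.56, and −0.52 without SE replicate 4 (exact permutation p = 0.143 and 0.229). The ratio of Cd4 to the geometric mean of the 3 CD3 genes separated the same groups in the opposite direction, from −0.90 down to −1.85 on the log2 scale in GLA-SE tumors and from −0.17 down to −0.79 in SE tumors. That difference was −0.77 (standard error 0.26, exact permutation p = 0.0286, adjusted 0.343), and −0.85 without SE replicate 4 with all GLA-SE tumors still below. For SE against PBS that ratio differed by 0.52 with all SE tumors and by 0.59 without SE replicate 4 (exact permutation p = 0.143 in both). Both differences between GLA-SE and SE with all tumors had the smallest p that the design allows and neither passed the adjustment over 24 tests. That p could pass only if most of the 24 tests reached it. Cd8a to CD3 was −1.48 ± 0.26 in GLA-SE tumors, −1.51 ± 0.47 in SE tumors and −1.43 ± 0.22 in PBS tumors. Its differences between groups were −0.08 to 0.04, with exact permutation p of 0.743 or more, and without SE replicate 4 they were 0.12 for SE against PBS and −0.16 for GLA-SE against SE (exact permutation p = 0.543 and 0.514). Cd8b1 to Cd8a, the balance of the 2 CD8 chains, had group means of −0.81 to −0.85, and differed by −0.05 for SE against PBS and 0.07 for GLA-SE against SE without SE replicate 4 (exact permutation p = 0.914 and 0.657).

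**Figure D3:**
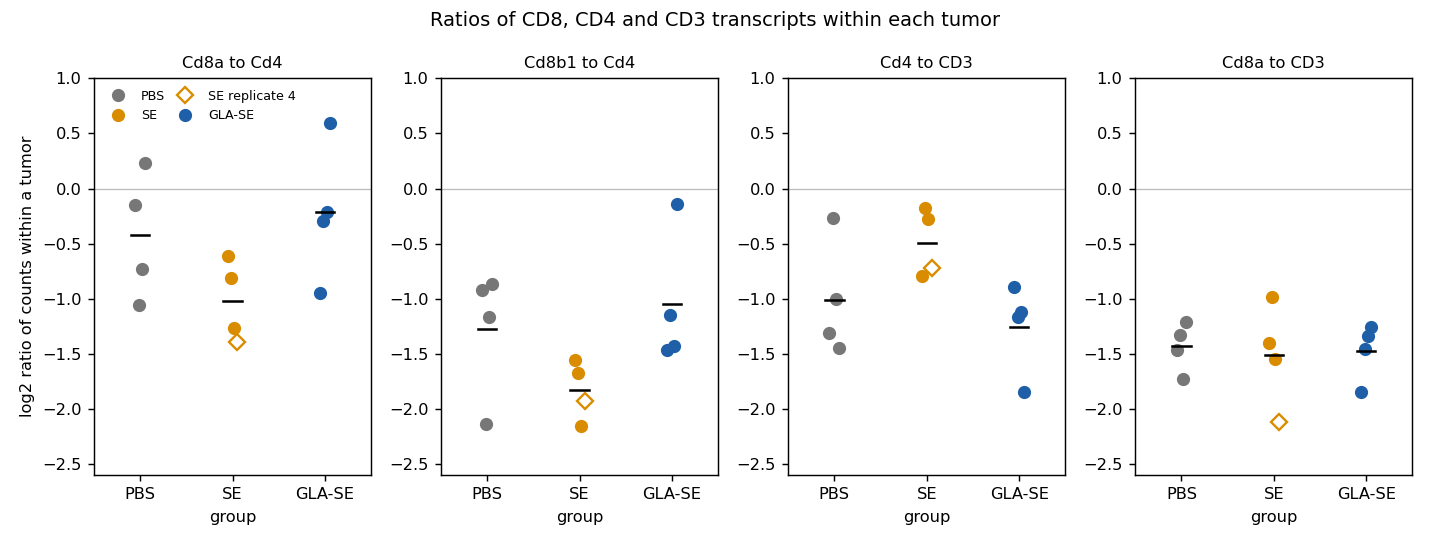
Log2 ratios of counts within each tumor (y axis) for Cd8a to Cd4, Cd8b1 to Cd4, Cd4 to the 3 CD3 genes and Cd8a to the 3 CD3 genes, by group. Points are tumors, black lines are means and the open diamond is SE replicate 4. GLA-SE and SE tumors do not overlap in Cd8b1 to Cd4 or in Cd4 to CD3, and all groups overlap in Cd8a to CD3.

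No shift between groups was detected in the proportion of zeta chain and kinase transcripts to the CD3 genes. The log2 ratio of Cd247 to CD3 was −1.03 ± 0.12 (SD, n = 4) in GLA-SE tumors, −1.10 ± 0.16 in SE tumors and −0.91 ± 0.22 in PBS tumors. That of Zap70 was −2.10 ± 0.16, −2.07 ± 0.21 and −2.04 ± 0.29, and that of Lck was −0.17 ± 0.16, −0.02 ± 0.21 and 0.02 ± 0.29. The 9 differences between groups in these ratios were −0.19 to 0.07, with standard errors of 0.10 to 0.18 and exact permutation p values of 0.257 or more. Without SE replicate 4 the 6 differences with SE were −0.20 to 0.08, with p of 0.286 or more by the exact permutation test. PBS replicate 2, the PBS tumor lowest in all 9 members, had the highest ratio of Lck to CD3 in that group, at 0.46 against −0.16 to −0.09, and of Zap70 to CD3, at −1.61 against −2.25 to −2.14.

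Over all 12 tumors the CD3 genes moved nearly as 1 quantity. The level of Cd3e varied 8.13-fold from the lowest to the highest tumor, while its ratio to Cd3d and Cd3g varied 1.24-fold. Cd3d varied 7.04-fold and its ratio to the other CD3 genes 1.34-fold. Cd247 varied 8.41-fold and its ratio to the 3 CD3 genes 1.59-fold. Cd4 was the loosest member, with a level that varied 7.67-fold and a ratio that varied 3.19-fold, followed by Cd8a with 5.18-fold and 2.20-fold. The SD of the log2 ratio was 0.10 to 0.15 for the CD3 genes, 0.18 to 0.22 for Cd247, Zap70, Lck and Cd8b1, 0.31 for Cd8a and 0.51 for Cd4. Levels keep the scale factors of the tumors, 0.4912 (SE replicate 4) to 1.4955 (SE replicate 1), which cancel in ratios. The wider spread of levels is thus partly that of the scaling. As deposited, Cd3e ran from 173 to 734 and Cd4 from 135 to 389, narrower than after scaling.

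**Figure D4:**
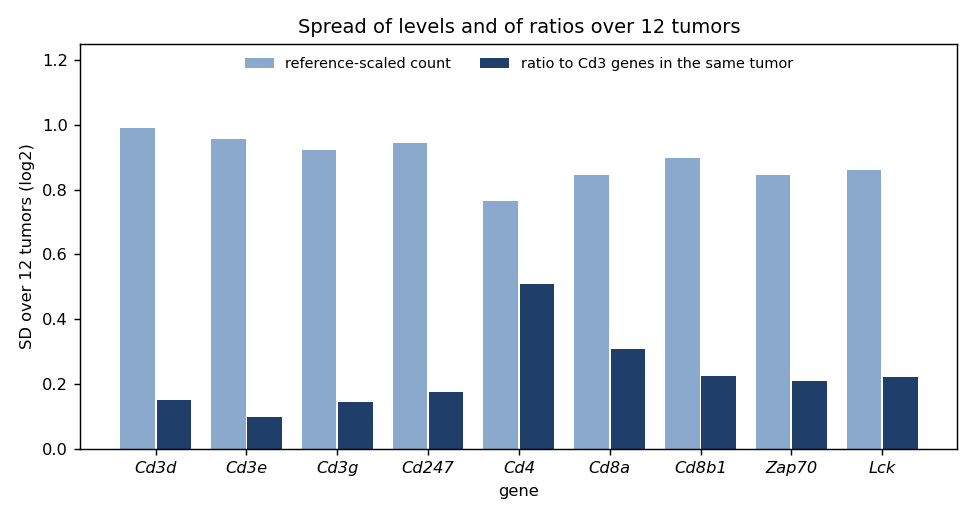
SD over 12 tumors, on the log2 scale, of each gene's reference-scaled count (light bars) and of its ratio to the Cd3 genes of the same tumor (dark bars, to the other Cd3 genes for Cd3d, Cd3e and Cd3g). The dark bar is lowest for Cd3e (0.10) and highest for Cd4 (0.51), while all light bars lie between 0.77 and 0.99. Light bars include the spread of the scale factors, which cancel in the dark bars.

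Cd6, Txk, Cd27 and Cd5 were among the panel genes whose level followed the mean of Cd3d, Cd3e and Cd3g most closely, as Pearson correlations of log2 levels over 12 tumors, given as a description since the tumors share scaling and groups. Cd6 and Cd5 are scavenger receptor family proteins of T cells, Txk is a Tec family kinase of the receptor pathway, and Cd27 is a costimulatory receptor. Their r values were 0.980, 0.975, 0.971 and 0.967, and 0.972, 0.982, 0.960 and 0.972 without SE replicate 1 and PBS replicate 2, the tumors farthest from the median. Among the members r with the same mean was 0.983 for Cd247, 0.980 for Zap70, 0.975 for Lck, 0.973 for Cd8b1, 0.949 for Cd8a and 0.846 for Cd4, and Cd4 fell to 0.771 without those tumors. Cd6 had reference-scaled counts of 45.8 to 138.5 in PBS tumors, 113.2 to 202.3 in GLA-SE tumors, 45.5 to 58.7 in SE replicates 1 to 3 and 299.2 in SE replicate 4. The same SE tumor stood apart in it as in the CD3 genes, and its PBS and GLA-SE tumors overlapped.

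Other genes of the receptor pathway were taken as 3 lists. Of 12 TCR signalling genes 9 were higher in GLA-SE than in PBS tumors and 0 lower, where the test called 68.7% of panel genes, with a median log2 fold change of 0.56 beside 0.89 over the panel. The 2 with the largest change were Nfatc2, a calcium-regulated transcription factor, with 103.7 to 142.3 in GLA-SE tumors and 44.9 to 67.5 in PBS tumors (a log2 difference of 1.15, s.e. 0.22, edgeR adjusted p = 0.00213), and Txk with 1.10 (s.e. 0.25, edgeR adjusted p = 0.00510). Bcl10, Nfatc3 and Sh2d1a were not called. Of 10 T cell surface molecules 4 were higher and 0 lower, a smaller share than the 68.7% of panel genes, with a median of 0.66 beside the same 0.89. Icos, an inducible costimulatory receptor, had 148.5 to 469.5 in GLA-SE tumors and 36.5 to 95.1 in PBS tumors (a log2 difference of 1.79, s.e. 0.45, edgeR adjusted p = 0.00774). Thy1, a surface glycoprotein of T cells that fibroblasts and endothelium also carry, rose by 1.43 on the log2 scale (s.e. 0.22, edgeR adjusted p = 8.64e-04). Cd2, Cd5, Cd6, Cd27, Cd40lg and Cd96 were not called.

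Of 10 genes induced by T cell receptor signalling 7 were higher in GLA-SE than in PBS tumors and 0 lower, a share close to the 68.7% of panel genes, with a median of 1.17 beside 0.89 over the panel. Il2ra, the alpha chain of the IL-2 receptor, had 434.6 to 1005 in GLA-SE tumors and 87.0 to 195.0 in PBS tumors (a log2 difference of 2.26, s.e. 0.33, edgeR adjusted p = 6.74e-04). Cd69, an early activation antigen of lymphocytes, had 495.3 to 2035 against 170.2 to 352.6 (a log2 difference of 1.70, s.e. 0.50, edgeR adjusted p = 0.0156). Egr1, Fasl and Il2 were not called. Many genes of this list are induced in B cells and myeloid cells too, and the cell that carried them was not measured. In SE against PBS and in GLA-SE against SE 0 genes of the 3 lists were called. The medians of SE against PBS were 0.22, 0.38 and 0.36 beside 0.53 over the panel, and 0.11, −0.40 and 0.24 beside 0.21 without SE replicate 4, where 0 were called too. Those of GLA-SE against SE were 0.26, 0.34 and 0.84 beside 0.22. Without SE replicate 4, GLA-SE tumors were higher than SE tumors in 4 of 12, 4 of 10 and 1 of 10 genes of the lists, where the test called 13.6% of panel genes, with medians of 0.49, 1.23 and 0.87 beside 0.61 over the panel. The surface molecules Cd6 and Cd5 had log2 fold changes of 1.65 and 1.60 there (standard errors 0.32 and 0.35, adjusted p = 0.0243 and 0.0308 from edgeR), Txk 1.77 (0.29, adjusted p = 0.0172 from edgeR), and Il2ra 2.63 (0.39, adjusted p = 0.0146 from edgeR).

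Markers of other cells were compared between GLA-SE and PBS tumors, where the test called 68.7% of panel genes, 512 of them higher and 3 lower. The NK cell, neutrophil, dendritic cell and B cell markers had smaller shares called than the panel. Summed counts of 5 NK cell markers (Ncr1, Klrb1c, Klrd1, Klra4 and Eomes) were 697.7 to 794.1 in GLA-SE tumors and 202.9 to 528.5 in PBS tumors, with 2 of 5 called higher and Klra4 under 20 counts in all tumors. All 6 macrophage and monocyte markers and all 6 of endothelium and fibroblasts were called higher, with sums of 7351.9 to 10123.8 against 2363.2 to 3428.7 and of 17381.8 to 25111.6 against 3743.5 to 8688.1. The sums of endothelium and fibroblasts were mostly Col1a1 and Col3a1. Of 6 neutrophil markers 3 were higher (sums 813.3 to 8877.3 against 208.1 to 231.5, with Ltf and Camp under 20 counts in all tumors), and of 4 cross-presenting dendritic cell markers 1 was. The neutrophil sum of GLA-SE tumors was largely S100a8, with a median of 1252 beside 1614.5 for the sum. Foxp3 and Ikzf2, markers of regulatory T cells, were both higher, with sums of 209.1 to 456.4 against 101.9 to 169.2. B cell markers went the other way, with 2 of 8 lower and 0 higher and sums of 16353.9 to 19065.4 against 19775.7 to 23304.9. The part of these changes in the levels of the receptor genes was not tested.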

How the data were processed

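RNA of 12 A20 tumors was measured on an nCounter panel (mouse PanCancer Immune Profiling). The authors deposited counts, 1 whole number per gene and tumor. The methods describe normalization in nSolver, but the deposited counts differ in totals and reference genes between tumors and were taken as raw. The assay counts probes, so there is no alignment and no build. The geNorm procedure over all 12 tumors kept 17 of 20 reference genes (Alas1, G6pdx and Gusb were dropped), and each tumor was scaled to their geometric mean, so that a tumor has 1 value in all 3 comparisons.

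The other 750 genes were fitted with edgeR 4.0.16 (quasi-likelihood, 8 tumors per comparison, no covariate, no filter) in R 4.3.3, with Benjamini-Hochberg adjustment and a threshold of 0.05. Exact permutation tests were two-sided over 70 assignments on log2(reference-scaled count + 1). Ratios were log2 ratios of deposited counts within a tumor, tested in the same way, with adjustment over 24 tests. The labels give only a group and a number. The study reports 4 mice per group, so each tumor was taken as 1 mouse and p values measure the spread between mice. Fits were tested on simulated data. No 2 tumors had identical counts, and total counts of 810260 to 1612415 together with 4 tumors per group limit the precision.

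The alternatives were all 20 reference genes, selection per comparison, panel median and TMM scaling, a filter of 20 counts in at least 4 tumors, all 12 tumors in 1 fit, a replicate block, limma 3.58.1, DESeq2 1.42.0, leaving out each tumor and, for ratios, a pseudocount of 1. No rescaling, and each other scaling without SE replicate 4, were added after seeing the data. Genes named are the 9 members, the 5 most correlated with the CD3 mean, and the 2 largest called changes of each list. One gene that the rule names is not reported here. Members and lists were chosen with earlier results of these data known. The cell lines and patient samples of the study were not analysed here. Figures were drawn with matplotlib.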

Additional observations from a re-analysis of the deposited data

Results flagged for a closer look

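In groups of 4 tumors, 27 sets of member levels and 24 sets of ratios were examined with Dixon's test for a distant lowest or highest tumor. It found one in 8 of the 51 sets, where chance gives about 5%. SE replicate 4 was the distant tumor in 5 of them. Its reference-scaled counts were 1209 for Cd3d (171.9 to 273.5 in the other SE tumors), 1191 for Cd3e (146.4 to 283.5), 1034 for Cd3g (151.1 to 274.8), 181.2 for Cd8b1 (30.8 to 51.2) and 1132 for Lck (161.4 to 246.1). The members share the scaling of a tumor, so these are not 5 separate observations. The others were Cd3e in GLA-SE replicate 2 at 573.2 (707.3 to 727.0 in the other GLA-SE tumors), and in PBS replicate 2 the log2 ratio of Zap70 to CD3 at −1.606 (−2.25 to −2.14 in the other PBS tumors) and that of Lck to CD3 at 0.458 (−0.16 to −0.09).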

How the results depend on the processing

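For GLA-SE against PBS the number of called members was 7, and between 6 and 9 with all 20 reference genes, selection per comparison, the count filter, the replicate block, limma and DESeq2. These alternatives called 440 (replicate block) to 517 (DESeq2) panel genes, beside 515 as reported. The number of called members was 0 with panel median scaling, 0 with TMM scaling, 0 with no rescaling and 0 with all 12 tumors in one fit, where the log2 fold changes were as reported and the error included the SE tumors. That single fit called 253 of 750 panel genes. Leaving out each tumor gave 1 to 9 called members and 442 to 503 called panel genes. Over the panel 512 genes were higher and 3 lower as reported, 61 and 307 with panel median scaling, 193 and 133 with TMM scaling and 351 and 17 with no rescaling, and the panel's median log2 fold change moved from 0.89 to −0.40, 0.13 and 0.61. With panel median scaling the log2 fold changes of GLA-SE against PBS reversed to −0.282 (Cd3d), −0.403 (Cd3e), −0.292 (Cd3g), −0.400 (Cd247), −0.483 (Cd4), −0.377 (Cd8a), −0.334 (Cd8b1), −0.341 (Zap70) and −0.455 (Lck). The members' median moved from 0.85 to −0.38, beside 0.89 to −0.40 over the panel. Why most panel genes rose relative to the reference genes was not tested.

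For SE against PBS 0 members were called in every alternative and the direction was not settled. The reversed values were, for panel median scaling, −0.724 (Cd3d), −0.723 (Cd3e), −0.531 (Cd3g), −0.802 (Cd247), −0.086 (Cd4), −0.726 (Cd8b1), −0.686 (Zap70) and −0.649 (Lck). For TMM scaling they were −0.570 (Cd3d), −0.561 (Cd3e), −0.392 (Cd3g), −0.630 (Cd247), −0.624 (Cd8b1), −0.539 (Zap70) and −0.490 (Lck), and for no rescaling −0.619, −0.617, −0.450, −0.673, −0.705, −0.572 and −0.515 in the same order. With the replicate block they were −0.200 (Cd3d), −0.203 (Cd3e), −0.313 (Cd247), −0.149 (Cd8b1), −0.158 (Zap70) and −0.206 (Lck), with limma −0.202, −0.218, −0.319, −0.171, −0.162 and −0.184, and with all 20 reference genes −0.085 (Cd8b1). With each tumor left out the values ran from −0.946 to 0.458 (Cd3d), −0.936 to 0.502 (Cd3e), −0.677 to 0.607 (Cd3g), −0.950 to 0.440 (Cd247), −0.095 to 1.075 (Cd4), −0.765 to 0.100 (Cd8a), −0.805 to 0.279 (Cd8b1), −0.703 to 0.422 (Zap70) and −0.858 to 0.531 (Lck), each lowest without SE replicate 4. Without that tumor the values were also below 0 under the other scalings, at −1.043 (Cd3d), −1.061 (Cd3e), −0.781 (Cd3g), −1.126 (Cd247), −0.264 (Cd4), −0.863 (Cd8b1), −0.872 (Zap70), −0.951 (Lck) with panel median scaling, and in the same order −1.089, −1.099, −0.827, −1.141, −0.280, −0.920, −0.885, −0.991 with TMM scaling and −1.140, −1.162, −0.892, −1.190, −0.352, −1.015, −0.918, −1.008 with no rescaling.

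For GLA-SE against SE 0 members were called, 1 with no rescaling, and 0 to 8 with each tumor left out, 8 only without SE replicate 4. Over the panel 16 genes were called as reported, 89 with no rescaling and 4 to 102 with each tumor left out. Without SE replicate 4, 0 members were called with panel median scaling, 4 with TMM scaling and 8 with no rescaling, beside 199, 27 and 154 panel genes. Cd4 reversed to −0.396 with panel median scaling and −0.110 with TMM scaling, to −0.221 with panel median scaling without SE replicate 4, and ran from −0.294 to 0.875 with each tumor left out.

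No ratio passed the adjusted threshold in any alternative. The exact permutation p cannot go below 0.0286 here. A ratio could thus pass only if most of the tests adjusted together reached that value, so this does not show that the ratios were alike. With each tumor left out the differences in log2 ratio that changed sign ran from −0.060 to 0.454 (Cd8a to Cd4), −0.076 to 0.367 (Cd8b1 to Cd4), −0.143 to 0.082 (Cd8a to CD3), −0.088 to 0.154 (Cd8b1 to Cd8a) and −0.131 to 0.086 (Zap70 to CD3) for GLA-SE against PBS, −0.258 to 0.121 (Cd8a to CD3), −0.048 to 0.178 (Cd8b1 to Cd8a), −0.148 to 0.096 (Lck to CD3) and −0.116 to 0.114 (Zap70 to CD3) for SE against PBS, and −0.164 to 0.215 (Cd8a to CD3), −0.130 to 0.106 (Cd8b1 to Cd8a) and −0.113 to 0.057 (Zap70 to CD3) for GLA-SE against SE.

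Replicate numbers were taken to name different mice and not to pair the tumors. The deviations of same-numbered tumors correlated at −0.248 to 0.184, and those of differently numbered tumors at −0.238 to 0.212. With the replicate block 8 members were called for GLA-SE against PBS in place of 7, 0 for SE against PBS and 0 for GLA-SE against SE. Over the panel the block called 440 genes for GLA-SE against PBS in place of 515, and 0 in both comparisons with SE. The smallest p of a blocked ratio was 0.125 by an exact sign-flip test, which 4 pairs cannot go below.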
